A study of Rattus norvegicus with 8 samples.

Results

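Glul, Axin2, Lgr5, Rnf43, Znrf3, Tbx3, Slc1a2, Rhbg, Oat and Lect2 are 10 genes that are switched on by Wnt signalling or expressed by the hepatocytes around the central vein. They were picked by name, from the gene symbols of the non-control spots of the array, with earlier results of these data known. These 10 genes were covered by 12 of the 45598 distinct probes, and 8 of them had a probe bright enough to test, among 14536 such genes in all.

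The cells came from livers of F344 rats given retrorsine (Ret), a plant alkaloid that keeps hepatocytes from dividing, and then partial hepatectomy (PH), the removal of part of the liver, so that every group shared the Ret/PH treatment. Small hepatocyte-like progenitor cells (SHPCs) grow as clusters in such livers, and the question was how these clusters differ when bone marrow-derived mesenchymal cells (BM-MCs) have been given through the spleen. RNA was taken by laser microdissection (LMD) from SHPC clusters of livers that received BM-MCs (3 samples), from SHPC clusters of control livers without transplantation (3 samples) and from mature hepatocytes (MHs) of control livers (2 samples), and each sample was hybridised to its own 1-colour Agilent array. The labels call the strain DPPIV-positive, whereas the methods describe DPPIV-negative female recipients and DPPIV-positive donors, and the age of the recipients is not stated in either. The donor BM-MCs were a primary culture that had not been purified. Since no source says which animal a sample came from, p-values measure only how these samples spread, which may be technical.

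Hepatocytes differ along the axis of the liver lobule, which is called zonation. Endothelial cells of the central vein release Wnt ligands and R-spondin 3, which stabilise β-catenin in the nearest hepatocytes, and β-catenin with TCF factors then switches on the pericentral program. That program includes glutamine synthetase, which captures the ammonia that periportal urea synthesis has left behind, and many enzymes of xenobiotic and bile acid metabolism. Wnt signalling also induces its own brakes, Axin2, Rnf43 and Znrf3, and the R-spondin receptor Lgr5.

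The sequences just before the start of these genes are shown as a description, and their part in the differences between the groups was not tested. TCF factors recognise short motifs, and CTTTGAA with CTTTGAT, as well as CTTTGTA with CTTTGTT, were searched on both strands of the 250 bases before each annotated start. The reverse of these motifs contains CAAAG, letters that are also found in sites of the hepatocyte factor HNF4A. RefSeq promoter entries of assembly GRCr8 were found for 7 of the 10 genes, as 9 entries in all, and none was in the table for Lgr5, Tbx3 and Znrf3. At least 1 motif was found in 4 of these 9 entries (44.4%), against 14.9% of all 33469 promoter entries. A match is a description of the letters and does not show binding. The 4 windows with a match follow, 5′ to 3′ on the plus strand, with the motif or its reverse complement in capitals.
Axin2, chr10:94398535-94398784: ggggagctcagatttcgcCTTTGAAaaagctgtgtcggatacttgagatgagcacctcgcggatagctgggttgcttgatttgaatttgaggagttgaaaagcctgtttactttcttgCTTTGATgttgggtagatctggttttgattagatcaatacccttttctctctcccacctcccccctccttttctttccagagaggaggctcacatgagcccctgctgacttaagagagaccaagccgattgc
Glul, chr13:68519250-68519499: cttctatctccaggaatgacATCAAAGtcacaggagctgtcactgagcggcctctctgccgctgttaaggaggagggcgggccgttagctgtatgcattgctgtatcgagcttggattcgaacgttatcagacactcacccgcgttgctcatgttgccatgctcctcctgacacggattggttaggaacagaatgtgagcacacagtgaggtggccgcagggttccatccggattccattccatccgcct
Lect2, chr17:8049784-8050033: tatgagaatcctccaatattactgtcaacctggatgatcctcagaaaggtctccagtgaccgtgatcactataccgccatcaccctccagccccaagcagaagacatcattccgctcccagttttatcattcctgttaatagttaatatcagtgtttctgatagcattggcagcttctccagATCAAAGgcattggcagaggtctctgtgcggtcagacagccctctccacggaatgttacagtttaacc
Slc1a2, chr3:109507697-109507946: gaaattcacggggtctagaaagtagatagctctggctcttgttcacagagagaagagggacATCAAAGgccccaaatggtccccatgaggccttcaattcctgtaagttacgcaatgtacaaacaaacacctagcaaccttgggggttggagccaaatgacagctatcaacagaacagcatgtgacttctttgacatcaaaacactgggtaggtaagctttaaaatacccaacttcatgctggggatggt
Axin2 matched CTTTGAA at the first place and CTTTGAT at the second, which began 232 and 132 bases before the start. Glul, Lect2 and Slc1a2 each had the reverse of CTTTGAT, and its letters began 230, 68 and 189 bases before the start. The windows of Axin2 and Slc1a2 belong to starts inside the annotated gene, since Axin2 spans chr10:94393379-94426579 and Slc1a2 spans chr3:109460109-109590445. Those of Glul, at chr13:68519500-68585554, and of Lect2, at chr17:8050034-8056256, end at the first base before the gene. No motif was found in the other entry of Glul, chr13:68575816-68576065, or in the entries of Oat, Rhbg and Rnf43. The Slc1a2 entry that ends at the first base before that gene, chr3:109459859-109460108, had none either.

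Signals are log2 values from which the 75th percentile of the array was subtracted, so that 0 is the level of a rather bright spot and 1 unit is a doubling. On each array 57.0% to 61.5% of spots exceeded background clearly and no spot was saturated. The 2 MHs and control SHPC replicates 1 and 2 lay on the first set of 4 arrays of the slide. The remaining control, replicate 3, shared the second set with the 3 BM-MC samples. The 8 arrays correlated with each other between 0.9696 and 0.9929 across 22969 probes, and control SHPC replicate 3 correlated most closely with BM-MC replicate 3 (0.9865), while BM-MC replicate 1 correlated most closely with MH replicate 2 (0.9878). All 15 hepatocyte markers, such as Alb and Hnf4a, were bright, that is well above background, on each of the 7 completely marked arrays. Fewer cells of a type and less RNA per cell cannot be told apart in such bulk samples.

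Slc1a2, Rhbg, Oat and Glul act in the ammonia and glutamine metabolism of pericentral hepatocytes. By group means, with the brighter of 2 probes for Glul, Slc1a2, Rhbg, Oat and Glul were 7.64-fold, 2.85-fold, 2.39-fold and 2.20-fold higher in MHs than in control SHPCs, with both MHs above all 3 controls for each gene. With normexp and quantile normalization, another background correction and scaling, the log2 differences of Slc1a2 and Rhbg were 2.09 and 0.98 in place of 2.93 and 1.51. That setting used only the 7 completely marked arrays, without control SHPC replicate 2, so processing and the lost sample cannot be told apart. None of the 4 passed limma's threshold after Benjamini-Hochberg adjustment over all 23111 tested probes. With BM-MCs the same 4 genes were 2.40-fold, 1.47-fold, 1.29-fold and 1.12-fold above control SHPCs, and only Rhbg had every BM-MC sample above every control. Normexp and quantile normalization gave log2 differences of 0.76 for Slc1a2 and 0.25 for Rhbg there. No test was made of the 4 genes as a group.

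Slc1a2 encodes a glutamate transporter that supplies pericentral hepatocytes with the substrate of glutamine synthesis. Its log2 signal was -1.09 and -2.12 in the MHs, -4.55, -4.30 and -4.77 in control SHPCs, and -2.26, -2.75 and -4.81 in SHPCs with BM-MCs. The MHs were highest, BM-MC replicates 1 and 2 lay between the MHs and the controls, and BM-MC replicate 3 was below every control. The log2 difference between MHs and control SHPCs was 2.93 (standard error 0.70, adjusted p = 0.114 from limma). Between both groups of SHPCs the log2 difference was 1.26 (standard error 0.64, adjusted p = 0.368 from limma). That value rested on single samples, since it was 0.76 without BM-MC replicate 1 and 2.03 without BM-MC replicate 3.

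Rhbg, an ammonium transporter of the cells that make glutamine, was at -2.51 and -3.19 in the MHs, -4.47, -4.32 and -4.30 in control SHPCs, and -3.36, -3.77 and -4.29 in SHPCs with BM-MCs. The groups did not overlap, although BM-MC replicate 3 was only just above the highest control. MHs exceeded control SHPCs by 1.51 on the log2 scale (standard error 0.30, adjusted p = 0.0707 from limma), the lowest adjusted p of the 10 genes. SHPCs with BM-MCs exceeded control SHPCs by 0.56 (standard error 0.24, adjusted p = 0.309 from limma). This was 0.33 without BM-MC replicate 1.

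Oat, ornithine aminotransferase, which feeds glutamate into the same pathway, was at 4.75 and 3.34 in the MHs, 2.495, 2.56 and 3.30 in control SHPCs, and 3.46, 3.49 and 2.52 in SHPCs with BM-MCs. MH replicate 1 stood far above all other samples, and MH replicate 2 was close to control replicate 3 and to BM-MC replicates 1 and 2. The log2 difference between MHs and control SHPCs was 1.26 (standard error 0.48, adjusted p = 0.229 from limma), and it was 0.56 without MH replicate 1. The difference of 0.37 between the SHPC groups (adjusted p = 0.599 from limma) was smaller than the spread within either group, and it ran from 0.20 without BM-MC replicate 2 to 0.68 without BM-MC replicate 3.

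Glul encodes glutamine synthetase, the classical marker of the innermost pericentral hepatocytes. The brighter of its 2 probes was at 3.13 and 2.99 in the MHs, 2.18, 2.19 and 1.41 in control SHPCs, and 2.40, 2.20 and 1.68 in SHPCs with BM-MCs. Both MHs lay above all 6 SHPC samples, whose groups overlapped, and replicate 3 was the lowest in both SHPC groups. Means were 3.06 ± 0.096 (SD, n = 2) in MHs, 1.93 ± 0.45 (SD, n = 3) in control SHPCs and 2.09 ± 0.37 (SD, n = 3) with BM-MCs. MHs exceeded control SHPCs by 1.13 on the log2 scale (standard error 0.30, adjusted p = 0.131 from limma), whereas the 2 SHPC groups differed by 0.17 (adjusted p = 0.783 from limma). The dimmer probe was at 0.062 and 0.63 in the MHs, -0.10, -0.17 and -0.89 in control SHPCs, and 0.070, -0.69 and -0.91 with BM-MCs. On it BM-MC replicate 1 lay just above MH replicate 1, and both MHs lay above the controls. It gave a log2 difference of 0.73 between MHs and control SHPCs (adjusted p = 0.314 from limma) and of -0.12 between the SHPC groups (adjusted p = 0.868 from limma), so that on both probes the mean of the MHs was highest, and the sign between the SHPC groups was not the same.

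**Figure D1:**
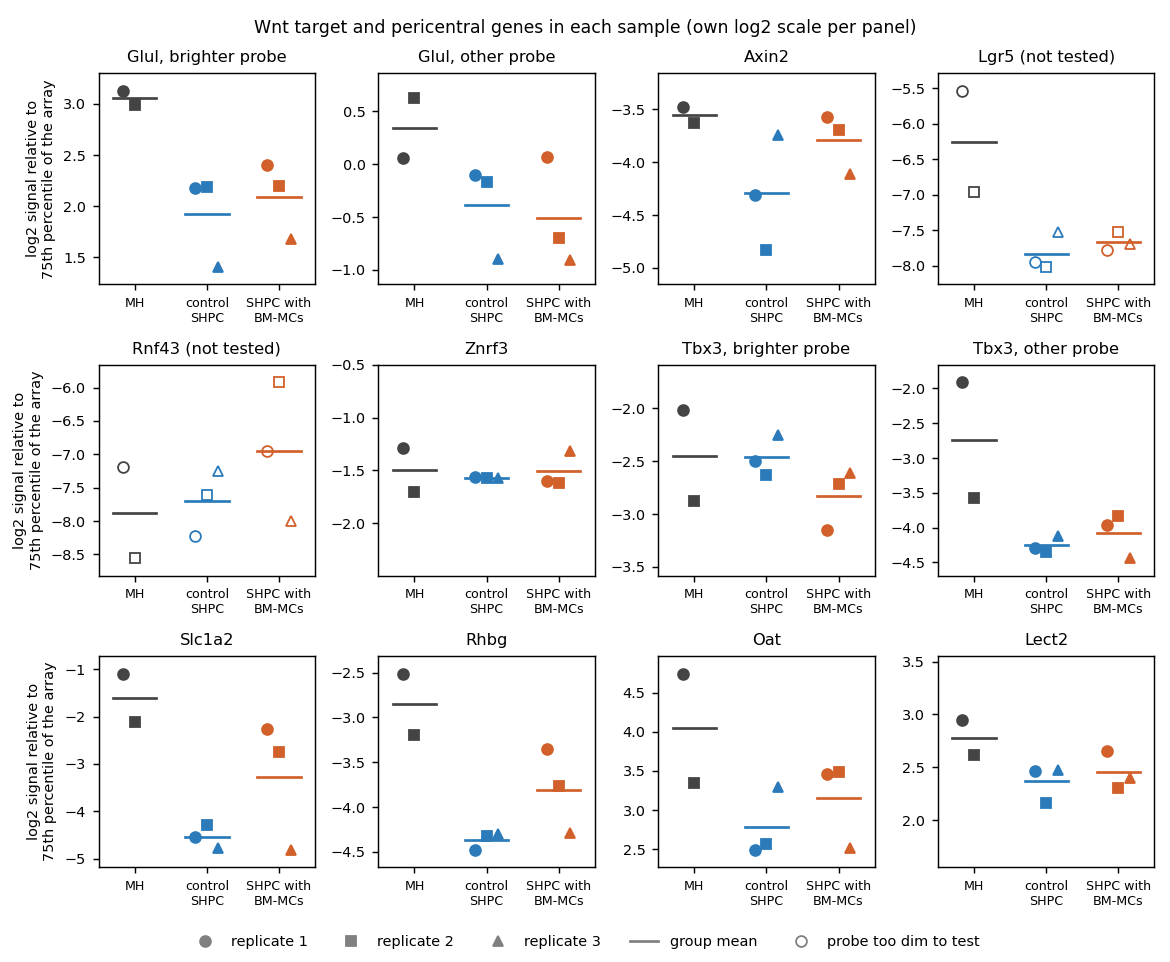
Log2 signal relative to the 75th percentile of the array (vertical axis, on its own scale in each panel) of every probe of the 10 genes in MHs, control SHPCs and SHPCs with BM-MCs, with one point per sample, bars at group means and open points for probes too dim to test. Both MHs lie above all SHPC samples for Slc1a2, Rhbg and the brighter probe of Glul, and BM-MC replicate 3 lies at the level of the controls for Slc1a2 and Rhbg.

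Of the feedback genes of the Wnt pathway, Axin2 and Znrf3 were bright enough to test. Axin2, a scaffold of the complex that degrades β-catenin, was at -3.48 and -3.63 in the MHs, -4.31, -4.83 and -3.74 in control SHPCs, and -3.57, -3.70 and -4.11 in SHPCs with BM-MCs. Both MHs lay above all 3 controls, but control replicate 3 was only just below MH replicate 2, and the BM-MC samples overlapped with both other groups. Axin2 was 0.74 higher on the log2 scale in MHs than in control SHPCs (standard error 0.31, adjusted p = 0.254 from limma) and 0.50 higher with BM-MCs (adjusted p = 0.426 from limma). Without control replicate 2 these differences were 0.47 and 0.23, and without control replicate 3 they were 1.02 and 0.78. With normexp and quantile normalization, which also lacked control replicate 2, they were 0.28 and 0.046. Relative to control SHPC replicate 3 alone, the control of the same slide set, the BM-MC samples differed by -0.051.

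Znrf3, a ubiquitin ligase that removes Wnt receptors from the cell surface, was at -1.29 and -1.71 in the MHs, -1.56, -1.57 and -1.58 in control SHPCs, and -1.60, -1.62 and -1.31 in SHPCs with BM-MCs. The 3 groups overlapped, and the controls lay within the range of the MHs. The log2 difference was 0.070 between MHs and control SHPCs (adjusted p = 0.843 from limma) and 0.058 between the SHPC groups (adjusted p = 0.828 from limma).

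Rnf43, the close relative of Znrf3, and Lgr5 were too dim to test. The probe of Rnf43 did not exceed background clearly on any of the 7 completely marked arrays, with log2 signals of -7.19 and -8.56 in the MHs, -8.23, -7.60 and -7.24 in control SHPCs, and -6.94, -5.92 and -8.00 with BM-MCs. Lgr5 was well above background only in MH replicate 1, where its log2 signal was -5.54. Its other signals were -6.97 in MH replicate 2, -7.96, -8.02 and -7.53 in control SHPCs, and -7.78, -7.53 and -7.69 with BM-MCs. These lay below the dimmest spots that were well above background on their arrays, at -6.32 to -5.61, so no fold is given.

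Tbx3, a transcription factor and Wnt target of pericentral hepatocytes, had 2 probes that did not behave alike. The brighter probe, designed on a curated transcript, was at -2.02 and -2.88 in the MHs, -2.50, -2.63 and -2.25 in control SHPCs, and -3.16, -2.72 and -2.62 in SHPCs with BM-MCs. Its values overlapped between all groups, with a log2 difference of 0.013 between MHs and control SHPCs (adjusted p = 0.985 from limma) and of -0.37 between the SHPC groups (adjusted p = 0.364 from limma). The other probe, designed on a predicted transcript, was at -1.91 and -3.58 in the MHs, -4.29, -4.35 and -4.12 in control SHPCs, and -3.96, -3.83 and -4.44 with BM-MCs. Both MHs were the highest samples on this probe, which gave a log2 difference of 1.51 between MHs and control SHPCs (standard error 0.44, adjusted p = 0.152 from limma) and of 0.17 between the SHPC groups (adjusted p = 0.648 from limma).

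Lect2, a secreted protein and Wnt target of hepatocytes, was at 2.95 and 2.61 in the MHs, 2.46, 2.16 and 2.47 in control SHPCs, and 2.65, 2.30 and 2.40 in SHPCs with BM-MCs. The MHs lay above the controls, and BM-MC replicate 1 lay between the 2 MHs. Its log2 difference was 0.41 between MHs and control SHPCs (standard error 0.17, adjusted p = 0.258 from limma) and 0.084 between the SHPC groups (adjusted p = 0.797 from limma). The former was 0.25 without MH replicate 1.

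Over the 8 tested genes, all were higher in MHs than in control SHPCs, with a median log2 difference of 0.94, against 0.057 over all genes. After adjustment 0 of 8 passed limma's threshold, in a comparison in which 1.13% of all tested probes passed. At an unadjusted p under 0.05, limma had 6 of 8 higher and none lower (12.5% and 7.71% of all genes), and the methods' t-test had 3 of 8, where it had 17.5% of all tested probes in either direction. The values of 6 of 8 genes did not overlap between the groups, in which MHs were the higher group as for 25.5% of all genes. Each of the 8 exceeded background clearly on all 7 completely marked arrays, so the filter did not favour genes high in a single group. Within the first slide set, which held both MHs and 2 controls, the differences were 2.82 for Slc1a2, 1.55 for Rhbg, 1.51 for Oat, 1.02 for Axin2, 0.88 for Glul, 0.47 for Lect2, 0.12 for Tbx3 and 0.066 for Znrf3. With MH replicate 1 left out, 6 of the 8 genes were still higher in the remaining MH and 3 had an unadjusted p under 0.05, as had 12.0% of all tested probes in that fit. Under other settings with an adjusted p at most Slc1a2 and Rhbg passed, and without BM-MC replicate 3, which enters this fit through the estimate of the spread, both did.

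With BM-MCs relative to control SHPCs, 7 of 8 genes were higher and Tbx3 was lower, with a median log2 difference of 0.27, against 0.025 over all genes. After adjustment 0 of 8 passed limma's threshold, where 0.0216% of all tested probes passed. At an unadjusted p under 0.05, both limma and the methods' t-test had 0 of 8, where limma had 10.3% of all genes higher and 5.85% lower and the methods' t-test had 14.9% of all tested probes in either direction. Only Rhbg did not overlap between the groups, with 13.3% of all genes not overlapping in that direction. Scaling each array to its median moved the median of all probes from 0.018 to -0.17, and Glul, Znrf3 and Lect2 were then lower with BM-MCs. Against control SHPC replicate 3 alone, within the second slide set, the 3 BM-MC samples differed by 1.49 for Slc1a2, 0.69 for Glul, 0.49 for Rhbg, 0.066 for Znrf3, -0.023 for Lect2, -0.15 for Oat and -0.58 for Tbx3. Leaving out control replicate 3 or BM-MC replicate 3 left 6 of 8 genes higher, with 1 and 2 of 8 at an unadjusted p under 0.05 in limma, where 19.4% and 20.3% of all tested probes were. Transplantation and slide set largely coincide, and only control replicate 3, the single control on the second set, separates them.

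SHPCs with BM-MCs were lower than MHs for all 8 genes, with a median log2 difference of -0.64, against -0.019 over all genes. None of the 8 passed after adjustment by limma, where 0.338% of all tested probes passed. Glul at -0.97 (adjusted p = 0.289), Rhbg at -0.95 (adjusted p = 0.295) and Slc1a2 at -1.67 (adjusted p = 0.371) had an unadjusted p under 0.05 in limma, where 6.72% of all genes did so in this direction and 6.78% in the other, and the methods' t-test had 1 of 8, where it had 9.26% of all tested probes in either direction. Slc1a2 was at -0.90 without BM-MC replicate 3, and Rhbg was at -0.61 without MH replicate 1. The differences of the other genes were -0.89 for Oat, -0.38 for Tbx3, -0.33 for Lect2, -0.24 for Axin2 and -0.012 for Znrf3. Oat was at -0.19 without MH replicate 1 and at -1.59 without MH replicate 2, and Lect2 was at -0.16 and -0.49. Axin2 ran from -0.35 without BM-MC replicate 1 to -0.080 without BM-MC replicate 3. The count of 3 rested on the MHs, since without MH replicate 1 it was 0 of 8, with 2 of 8 genes higher with BM-MCs, and without MH replicate 2 it was 5 of 8, where 7.16% and 12.7% of all tested probes had such a p. Cell type and transplantation cannot be told apart here. Both MHs lay on the first slide set and all 3 BM-MC samples on the second, so that slide set is separated from group only through the controls. In a fit blocked by slide set, Glul moved to -0.19, while Oat at -1.66, Axin2 at -1.07 and Tbx3 at -0.69 moved away from 0, and 1 of 8 genes had an unadjusted p under 0.05, as had 6.75% of all tested probes. Glul, Rhbg and Slc1a2 had every BM-MC sample below both MHs, as had 18.0% of all genes. The group means of 7 of 8 genes ran in the order MHs, SHPCs with BM-MCs and control SHPCs from high to low, as did those of 24.1% of all genes. The 3 comparisons share samples, so this order is not separate evidence. Neighbours in the order did not differ past the adjusted threshold for any gene.

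**Figure D2:**
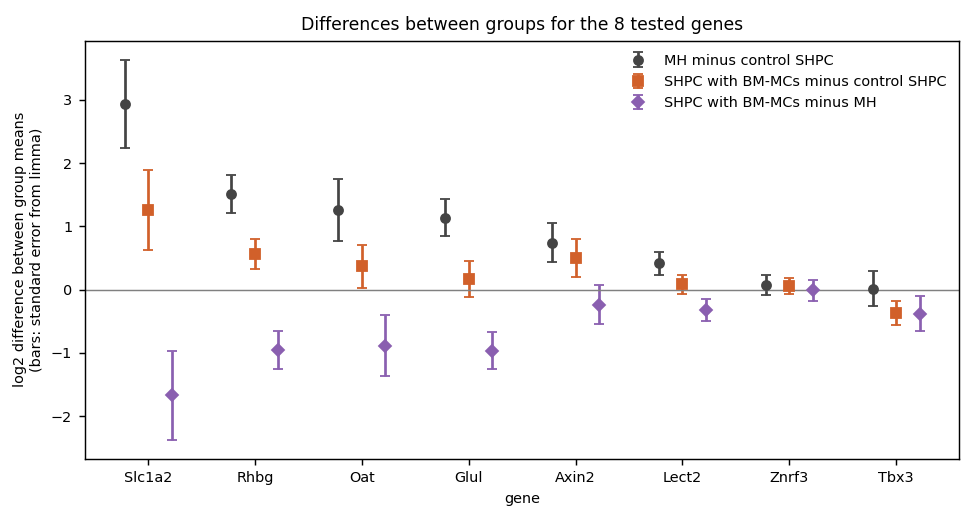
Log2 difference between group means (vertical axis) of the 8 tested genes in the 3 comparisons, with bars for the standard error from limma. The differences between MHs and control SHPCs run from 0.013 for Tbx3 to 2.93 for Slc1a2, and those between the SHPC groups from -0.37 for Tbx3 to 1.26 for Slc1a2.

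Among the other genes of the Wnt pathway, Rspo3 and Dkk3 passed the test between MHs and control SHPCs. Of 66 listed ligands, receptors, intracellular components, inhibitors and targets, 40 were bright enough to test. Between MHs and control SHPCs 24 were higher and 16 lower, with a median of 0.14, and limma called 2 higher and 0 lower, where 0.216% of all tested probes were called higher and 0.917% lower. Of the 40, 9 were higher and 1 lower at an unadjusted p under 0.05, where 12.5% and 7.71% of all genes were. The ligand genes Wnt9b and Wnt5a and the targets Sp5 and Lef1 were among those too dim to test.

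Rspo3, the R-spondin that keeps Wnt receptors on the surface of pericentral hepatocytes, was at -1.92 and -1.61 in the MHs, -3.46, -3.76 and -3.35 in control SHPCs, and -2.29, -2.63 and -3.10 in SHPCs with BM-MCs. The 3 groups did not overlap and followed the order of Slc1a2 and Rhbg. Rspo3 was 1.76 higher on the log2 scale in MHs than in control SHPCs (standard error 0.25, adjusted p = 0.0237 from limma). Between the SHPC groups the difference was 0.85 (standard error 0.23, adjusted p = 0.191 from limma), and from MHs to SHPCs with BM-MCs it was -0.91 (adjusted p = 0.26 from limma). Dkk3, a secreted member of the Dickkopf family, was at -4.27 and -4.21 in the MHs, -5.31, -5.39 and -5.15 in control SHPCs, and -4.59, -5.03 and -4.67 with BM-MCs. It was 1.04 higher in MHs than in control SHPCs (standard error 0.16, adjusted p = 0.0343 from limma) and 0.52 higher with BM-MCs (adjusted p = 0.221 from limma). With 1 sample left out the difference of Rspo3 was 1.61 to 1.92, and its call held without control replicate 3, BM-MC replicate 1 or BM-MC replicate 3 and was lost without any other sample (adjusted p up to 0.134 from limma). That of Dkk3 was 0.99 to 1.11, and its call was lost without either MH or control replicate 1 or 2 (adjusted p up to 0.204 from limma). With normexp and quantile normalization Dkk3 was at 0.51 (adjusted p = 0.16 from limma).

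With BM-MCs 0 of the 40 passed limma's adjusted threshold, and 4 were higher and 0 lower at an unadjusted p under 0.05, where 10.3% and 5.85% of all genes were. Their median was 0.060. The lowest p belonged to Myc, a growth-promoting transcription factor, which was 0.93 higher (adjusted p = 0.171 from limma), followed by Rspo3 and Dkk3. Against MHs 0 passed, 1 was higher and 6 were lower at an unadjusted p under 0.05 (6.78% and 6.72% of all genes), and Ascl2, a Wnt-induced transcription factor, had the lowest p (log2 difference -0.68, adjusted p = 0.141 from limma), followed by Rspo3 and by Dkk3 at -0.52 (adjusted p = 0.294 from limma).

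The other pericentral genes mostly lay in the same direction as the 8 tested genes. Of 39 listed, 35 were tested, and MHs exceeded control SHPCs for 29 and lay below them for 6, with a median of 0.52. Limma called 2 of them higher after adjustment, as it did 0.216% of all tested probes. At an unadjusted p under 0.05, 19 were higher and 1 lower, where 12.5% and 7.71% of all genes were. Nr1i3, the nuclear receptor CAR, which switches on enzymes of drug metabolism, was at 0.41 and -0.46 in the MHs, -2.20, -1.81 and -2.24 in control SHPCs, and -0.63, -0.72 and -1.58 with BM-MCs. No value overlapped between the 3 groups, and MHs exceeded control SHPCs by 2.06 (standard error 0.36, adjusted p = 0.0494 from limma). Gstm1, a glutathione transferase, was at 4.36 and 3.96 in the MHs, 3.32, 3.32 and 3.30 in control SHPCs, and 3.83, 3.72 and 3.66 with BM-MCs. Its groups did not overlap either, and the difference between MHs and control SHPCs was 0.85 (standard error 0.15, adjusted p = 0.0480 from limma). The call of Nr1i3 held only without BM-MC replicate 3, and that of Gstm1 only without BM-MC replicate 3 or MH replicate 2, among the 8 fits that each left out a sample (adjusted p up to 0.273 and 0.24 from limma).

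Of the pericentral genes, 2 were chosen after their values were seen. Cyp2e1, an ethanol-oxidising cytochrome P450 and a standard pericentral marker, was at 6.88 and 6.28 in the MHs, 5.26, 5.14 and 5.66 in control SHPCs, and 6.32, 6.05 and 5.41 with BM-MCs, a log2 difference of 1.23 between MHs and control SHPCs (adjusted p = 0.126 from limma). Cyp3a2, another cytochrome P450, went the other way, at -2.999 and -2.75 in the MHs and 0.56, 0.79 and 1.15 in control SHPCs. With BM-MCs Cyp3a2 was spread from -1.51 to 2.73, and its log2 difference between MHs and control SHPCs was -3.71 (standard error 1.06, adjusted p = 0.149 from limma).

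Of the SHPC groups, the one with BM-MCs was higher for 27 of the 35 other pericentral genes and lower for 8, with a median of 0.26. None passed after adjustment by limma, while 7 were higher and 0 lower at an unadjusted p under 0.05 (10.3% and 5.85% of all genes). Gstm1 at 0.42 (adjusted p = 0.171), Nr1i3 at 1.10 (adjusted p = 0.18) and Cyp2c11 at 0.46 (adjusted p = 0.247), a male-predominant cytochrome P450, had the lowest p in limma. Against MHs, 29 were lower and 6 higher with BM-MCs, with a median of -0.32 and 0 calls. At an unadjusted p under 0.05, 11 were lower and 3 higher (6.72% and 6.78% of all genes), with the lowest p for Cyp1a2 (-0.55, adjusted p = 0.259 from limma), Ces1d (-1.41, adjusted p = 0.267 from limma) and Aldh1a1 (-0.79, adjusted p = 0.287 from limma).

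Periportal genes mostly lay in the opposite direction. Of 38 listed genes, 36 were tested, and MHs lay below control SHPCs for 31 and above them for 5, with a median of -0.45. Limma called 2 lower after adjustment, as it did 0.917% of all tested probes. At an unadjusted p under 0.05, 18 were lower and 3 higher, where 7.71% and 12.5% of all genes were. Aldh1b1, a mitochondrial aldehyde dehydrogenase, was at 1.36 and 0.86 in the MHs, 2.95, 2.89 and 3.10 in control SHPCs, and 2.18, 1.59 and 1.76 with BM-MCs. It fell by 1.87 from control SHPCs to MHs on the log2 scale (standard error 0.22, adjusted p = 0.0104 from limma), and this call was lost only without MH replicate 2 or control replicate 1, among the 8 fits that each left out a sample (adjusted p = 0.0652 and 0.0524 from limma). Ggt1, gamma-glutamyltransferase, an enzyme of bile ducts and of immature hepatocytes, was at -4.45 and -4.85 in the MHs, -2.14, -2.16 and -2.07 in control SHPCs, and -3.21, -3.21 and -1.87 with BM-MCs. BM-MC replicate 3 was above every control, and the other BM-MC samples lay between the controls and the MHs. Ggt1 fell by 2.53 from control SHPCs to MHs (standard error 0.39, adjusted p = 0.0341 from limma), a call that held only without BM-MC replicate 1 or 3, among these 8 fits (adjusted p up to 0.169 from limma). With normexp and quantile normalization Ggt1 was at -1.67 (adjusted p = 0.107 from limma).

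Between the SHPC groups 16 periportal genes were higher and 20 lower with BM-MCs, with a median of -0.047 and 0 calls by limma. At an unadjusted p under 0.05, 1 was higher and 2 lower (10.3% and 5.85% of all genes), and the lowest p belonged to Aldh1b1 (-1.14, adjusted p = 0.104 from limma), Pigr, the receptor that carries immunoglobulins into bile (1.10, adjusted p = 0.148 from limma), and Hsd17b6 (-0.47, adjusted p = 0.258 from limma). Against MHs, 33 of 36 were higher with BM-MCs and 3 lower, with a median of 0.42, and 0 passed in limma, with 13 higher and 1 lower at an unadjusted p under 0.05 (6.78% and 6.72% of all genes). Sds, serine dehydratase, a periportal enzyme of gluconeogenesis, had the lowest p (2.06, adjusted p = 0.093 from limma), followed by Ggt1 (1.88, adjusted p = 0.165 from limma) and Ddah1 (1.03, adjusted p = 0.23 from limma).

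**Figure D3:**
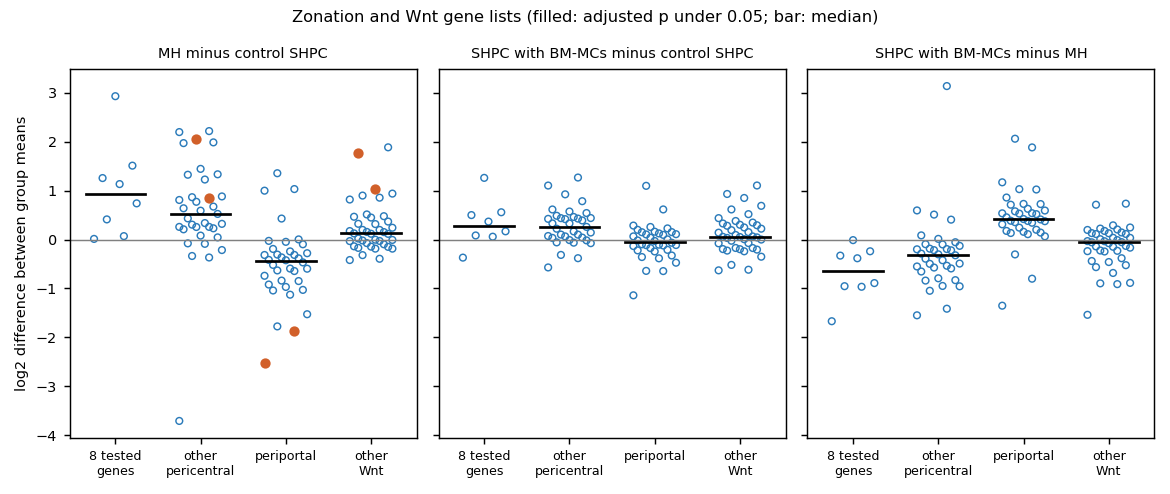
Log2 difference between group means (vertical axis) of each tested gene among the 8 genes and the 35 other pericentral, 36 periportal and 40 other Wnt pathway genes in the 3 comparisons, with a bar at each median and filled points for an adjusted p under 0.05. The median of the pericentral list lies above 0 and that of the periportal list below 0 for MHs against control SHPCs, at 0.52 and -0.45, with 6 of 35 and 5 of 36 genes on the other side, and the order of the medians is turned for SHPCs with BM-MCs against MHs.

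The lists were also read sample by sample, as a description without a test. With each gene centred on the mean of its 3 group means, the median of the 8 tested genes was 0.665 and 0.168 in the MHs, -0.302, -0.508 and -0.0544 in control SHPCs, and 0.122, -0.0938 and -0.426 with BM-MCs. Control replicate 3 was above BM-MC replicates 2 and 3, and BM-MC replicate 3 lay within the range of the controls. The 35 other pericentral genes had medians of 0.397 and 0.216 in the MHs, -0.302, -0.377 and -0.114 in control SHPCs, and 0.0932, 0.0771 and -0.125 with BM-MCs, so that BM-MC replicate 3 again lay among the controls. For the 36 periportal genes the medians were -0.267 and -0.332 in the MHs, 0.0569, 0.0352 and 0.449 in control SHPCs, and -0.068, 0.157 and 0.35 with BM-MCs, with the highest values in replicate 3 of both SHPC groups. Within the first slide set, MHs were above both controls' mean for 31 of 35 other pericentral genes (median 0.62), 8 of 36 periportal genes (median -0.37) and 29 of 40 other Wnt genes (median 0.14). Within the second set, the BM-MC samples were above control replicate 3 for 21 of 35 other pericentral genes (median 0.13), 8 of 36 periportal genes (median -0.23) and 17 of 40 other Wnt genes (median -0.031).

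**Figure D4:**
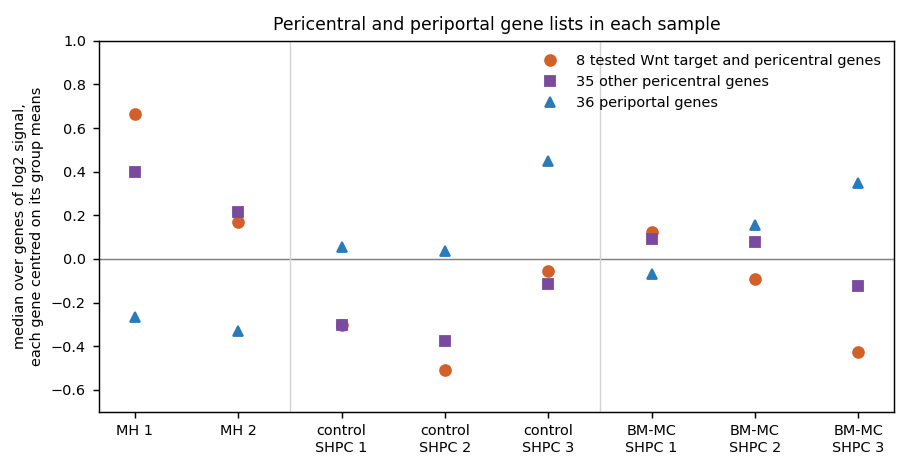
Median over the genes of each list of the log2 signal, each gene centred on the mean of its 3 group means (vertical axis), in the 8 samples, for the 8 tested genes, 35 other pericentral genes and 36 periportal genes. Both MHs lie above 0 for the pericentral genes and below 0 for the periportal genes, and BM-MC replicate 3 lies at -0.426 for the 8 genes, within the range of the control SHPCs.

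Markers of other cells that the cut tissue could hold were read beside these genes. Of 16 markers of Kupffer cells and other macrophages, 14 had a higher mean in MHs than in control SHPCs and 2 a lower one, with 7 higher at an unadjusted p under 0.05 (12.5% of all genes) and 0 after adjustment by limma. Their summed level was 6.83 to 6.84 in MHs, 5.87 to 6.41 in control SHPCs and 6.18 to 6.64 with BM-MCs. A summed level here is the log2 of the added signals, so the brightest markers, such as Clec4f and C1qb for macrophages, weigh most. For 15 markers of endothelial cells, a known source of Rspo3, the summed level was 4.43 to 4.70 in MHs, 4.35 to 4.45 in control SHPCs and 4.43 to 4.54 with BM-MCs. Relative to control SHPCs 12 of these markers were higher and 3 lower in MHs. At an unadjusted p under 0.05 in limma, 3 were higher and 0 lower, where 12.5% and 7.71% of all genes were. Of 13 stellate cell markers, 6 were higher and 7 lower, and Rgs5, a pericyte gene, was called higher in MHs at 1.09 (adjusted p = 0.0341 from limma). Of the 8 fits that each left out a sample, this call held only without BM-MC replicate 3 (adjusted p up to 0.156 from limma), and with normexp and quantile normalization the difference was 0.69.

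Of 9 tested biliary markers, 2 were higher and 7 lower in MHs relative to control SHPCs, and 4 were lower at an unadjusted p under 0.05 (7.71% of all genes). Krt19, a defining keratin of bile ducts, was at -6.34 and -4.88 in the MHs, -3.80, -3.36 and -4.41 in control SHPCs, and -3.54, -4.75 and -4.96 with BM-MCs. The summed level of 8 erythroid markers was 6.75 in control SHPC replicate 3 and 3.92 to 5.32 in the other 7 samples. The summed level of the hepatocyte markers was 10.71 to 10.74 in MHs, 10.69 to 10.88 in control SHPCs and 10.54 to 10.82 with BM-MCs. Relative to control SHPCs the MHs had a higher mean for 1 of 4 tested granulocyte markers and for 1 of 6 lymphocyte markers, and a lower mean for the others.

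With BM-MCs relative to control SHPCs, 0 markers of these lists passed after adjustment by limma. Of the blood cell lists, 3 of 4 granulocyte, 5 of 8 erythroid and 2 of 6 lymphocyte markers, and also 2 of 9 biliary markers, were lower at an unadjusted p under 0.05 and none was higher, where 5.85% of all genes were lower. The granulocyte genes S100a8, S100a9 and Retnlg were lower by log2 differences of -1.46, -1.84 and -1.30 (adjusted p = 0.117, 0.0676 and 0.0859 from limma), with every BM-MC sample below every control. The median difference was -1.38 for the granulocyte list and -1.38 for the erythroid list. Control replicate 3 weighed heavily in the erythroid value. With each gene centred on its group means, the erythroid median was 0.19, 0.076 and 1.93 in control SHPCs and -0.79, -0.79 and -0.455 with BM-MCs. The summed granulocyte level was -0.73 and 0.89 in the MHs, 0.36 to 0.82 in control SHPCs and -0.78 to -0.56 with BM-MCs, and the summed lymphocyte level was 1.73 to 2.09 in all samples. Macrophage, endothelial and stellate cell lists had 1, 2 and 2 markers higher with BM-MCs at an unadjusted p under 0.05 and none lower, where 10.3% of all genes were higher. The part of these other cells in the differences of the Wnt and zonation genes was not tested.

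The genes whose profile over the 8 samples was most like that of Glul were Entpd5, Rcan1, Alas1, Tbc1d16 and Far1. Likeness was the root mean square difference between profiles, each centred on its own mean, over 6823 genes that varied enough to compare, and it was 0.0982, 0.107, 0.142, 0.147 and 0.152 log2 units for these 5 genes. Alas1 encodes the rate-limiting enzyme of heme synthesis. Of the other genes chosen by name, Rhbg came nearest, at rank 670, followed by Axin2 at rank 2145, Oat at rank 2208, Tbx3 at rank 3010 and Slc1a2 at rank 5661. Lect2 and Znrf3 varied too little to be ranked. Profiles were not scaled by their spread, so the size of the differences counted as well as their pattern. The likeness was measured on the samples already described and is no further evidence.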

How the data were processed

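Gene expression was measured in 8 microdissected samples (2 MHs, 3 control SHPCs and 3 SHPCs with BM-MCs). The intensity that the authors deposited for each spot is the processed signal of Agilent Feature Extraction (version 10.7 per the submitters' processing notes), with background already subtracted and no scaling between arrays; the other deposited columns used are marks for outliers and for spots well above background. For control SHPC replicate 2 the scanner file ends at 20903 of 62976 features. Signals of that array were read from the deposited value table instead, and the filter ignored its marks.

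The 75th percentile of each array was subtracted after log2 transformation, outlier spots were dropped and the spots of a probe were averaged. A probe was tested if it exceeded background clearly on 3 or more of the 7 completely marked arrays. Tests used R 4.3.3 and limma 3.58.1, with Benjamini-Hochberg adjustment over 23111 probes at a threshold of 0.05. SHPC groups were compared on their 6 samples, and MHs in a fit of all 8. Precision is limited by how few arrays there are. Of several probes of a gene the brightest tested one was taken, and the 14536 tested genes were named through RefSeq tables (GRCr8) or the array's own symbols. The procedure was checked on simulated data.

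The genes and lists were chosen with earlier results of these data known. Named were all 10 genes, the Wnt, pericentral and periportal genes past the adjusted threshold or otherwise the 3 of lowest p, and the 5 genes most like Glul. Cyp2e1, Cyp3a2 and the markers of other cells given with values were named outside this rule, after their values were seen. Alternatives tried were other scalings, filters, background correction, blocks, tests and each sample left out. The alternative with normexp and quantile normalization lacked control SHPC replicate 2, whose scanner file is incomplete.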

Additional observations from a re-analysis of the deposited data

How the results depend on the processing

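No alternative with an adjusted p called any of the 10 genes between the SHPC groups or between MHs and SHPCs with BM-MCs. For MHs against control SHPCs, where the count was 0, it was 1 with only probes above background on every complete array (Rhbg), 1 with array weights in limma (Rhbg), 1 with only the 2 groups in the fit (Slc1a2) and 2 with an intensity trend (Slc1a2 and Rhbg). The methods' t-test without adjustment had 3 there and 1 for SHPCs with BM-MCs against MHs. With each sample left out the counts were 0 in both comparisons of SHPCs with BM-MCs, and 0 to 2 for MHs against control SHPCs.

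Probes called between the SHPC groups numbered 5 and became 213 without scaling, 0 without a filter, 3 with the filter on every complete array, 3 with a floor for dim spots, 3 with normexp and quantile normalization, 22 with all 8 samples in the fit, 33 with an intensity trend, 359 with array weights, 0 by the methods' t-test after adjustment and 3453 without it, and 0 to 530 with a sample left out. For MHs against control SHPCs the 262 became 136 without a filter, 124 with normexp and quantile normalization, 559 with an intensity trend, 500 with array weights, 0 by the t-test after adjustment and 4037 without it, and 55 to 523 with a sample left out. For SHPCs with BM-MCs against MHs the 78 became 50 with median scaling, 7 with quantile normalization, 1 without a filter, 3 with normexp and quantile normalization, 0 with only the 2 groups, 3 in a fit blocked by slide set, 130 with an intensity trend, 0 by the t-test after adjustment and 2141 without it, and 0 to 115 with a sample left out. The causes were not tested.

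With the replicate number as a block the calls were 0, 159 and 0 in these comparisons, and 0 of the 10 genes passed. Same-numbered SHPC samples correlated at 0.133, 0.0779 and 0.171 in their deviations from the group means, each the best partner of its BM-MC sample among the controls (BM-MC replicate 2 was closer to MH replicate 1, at 0.129), which is a hint from the data and not from the design.

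Between the SHPC groups Glul, Znrf3 and Lect2 turned to -0.023, -0.13 and -0.11 with median scaling, and Axin2, Oat and Lect2 to -0.051, -0.15 and -0.023 in a fit blocked by slide set. Tbx3 was at -0.071 for MHs against control SHPCs with normexp and quantile normalization. With a sample left out, between the SHPC groups Lect2 ran from -0.018 to 0.16, Glul from -0.090 to 0.37 and Znrf3 from -0.040 to 0.11. For MHs against control SHPCs Znrf3 ran from -0.14 to 0.28 and Tbx3 from -0.42 to 0.44, and for SHPCs with BM-MCs against MHs they ran from -0.22 to 0.20 and from -0.81 to 0.048. The 8 tested genes otherwise kept their direction under the alternatives run. Beside the fits with a sample left out, 14 alternatives with an adjusted p were run for each called list gene, and the call of Rspo3 held in 11, of Dkk3 in 8, of Gstm1 in 6, of Nr1i3 in 6, of Aldh1b1 in 13, of Ggt1 in 9 and of Rgs5 in 8. The background marks of control SHPC replicate 2 are incomplete, and dim probes such as Lgr5 and Rnf43 have only a bound.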
